A study of Mus musculus with 8 samples.

Results

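P2rx7 and P2rx4 encode ATP-gated ion channels of the P2X family and are adjacent on mouse chromosome 5. These 2 genes, out of 37310 genes counted in every file, were chosen by symbol after mapping the deposited Ensembl gene IDs to mouse gene symbols. P2rx7 (ENSMUSG00000029468) was selected on its readout, because its rise in the J1 libraries labelled as eIF4A3 knockdowns was among the largest and best counted. P2rx4 (ENSMUSG00000029470) was listed with it. The values that selected P2rx7 come from the KD and control libraries described below, so all 3 comparisons of P2rx7 are given as a description, with no test.

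A P2X channel is a trimer that opens when ATP outside the cell binds between its subunits, and it lets calcium and sodium in and potassium out. P2X7 needs far more ATP than the other members, keeps conducting while ATP is present, and in macrophages its potassium loss triggers the NLRP3 inflammasome and the release of interleukin-1 beta. P2X4 responds to low ATP, resides largely in lysosomes and is best known from microglia. ATP acting on P2 receptors has been linked to the proliferation of mouse embryonic stem cells.

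Poly-A RNA of 8 libraries was sequenced to profile the transcriptome of mouse embryonic stem cells after knockdown of eIF4A3, a helicase that is part of the exon junction complex. Of these, 6 libraries came from the J1 line (strain 129S4/SvJae), in 3 groups of 2. The first group carried a control knockdown with control expression, the second a knockdown of eIF4A3 with control expression, and the third a knockdown of eIF4A3 with expression of Ccnb1, which encodes cyclin B1. They are called control, KD and KD+Ccnb1 below, as their labels name them. The CCE line (strain 129/Sv) gave 2 libraries labelled eIF4A3 knockdown, and no CCE control was analysed here. All cells were grown without feeders in serum and leukemia inhibitory factor. They were transfected, drug-selected, infected with lentivirus, selected with puromycin at 1 µg/mL for 2.5 days and collected 4.5 days after infection. Separate cultures are not stated for the libraries of a group, so p-values measure the spread between these libraries only, which may be technical.

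The J1 libraries held 3596615 to 8340023 gene counts and the CCE libraries 23965806 and 25573379. Fewer genes were detected in KD, 13217 and 14024, than in control, 17097 and 17237, or in KD+Ccnb1, 18671 and 18955. Unaligned reads took 40.8% and 45.2% of the totals in KD and 15.7% to 15.9% in the other J1 libraries. Libraries of a group differed by 22.0 times Poisson noise in KD, against 3.41 in control and 1.88 in KD+Ccnb1. Eif4a3 stood at 73.5 and 83.7 CPM (gene counts scaled to the same library total) in control, 75.7 and 37.5 CPM in KD and 47.3 and 53.5 CPM in KD+Ccnb1, so replicate 1 of KD was at the control level. The Ccnb1 gene stood at 135 and 129 CPM in the control and at 136 and 131 CPM in KD+Ccnb1. Its row did not show the expression that the label names, and reads in near-identical copies were not counted here. The summed level of 10 embryonic stem cell markers was 8498 and 8466 CPM in the control, 4252 and 3840 CPM in KD and 7911 and 7895 CPM in KD+Ccnb1.

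The 250 bases before each start are printed because the members are close neighbours with unlike levels. Each promoter is from RefSeq, build GRCm38.p6, on the plus strand, whereas the submitters' processing notes name mm9, so no count was read by position. Capitals mark the AP-1 letters TGAGTCA and the GC box letters GGGCGG, searched on both strands. The windows are chr5:122643677-122643926 for the first P2rx7 start and chr5:122707294-122707543 for P2rx4.
P2rx7 start 1: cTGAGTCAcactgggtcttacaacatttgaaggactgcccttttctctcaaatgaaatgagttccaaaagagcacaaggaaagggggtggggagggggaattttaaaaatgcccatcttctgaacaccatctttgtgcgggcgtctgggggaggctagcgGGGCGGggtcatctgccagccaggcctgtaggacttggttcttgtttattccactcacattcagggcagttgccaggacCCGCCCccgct
P2rx4: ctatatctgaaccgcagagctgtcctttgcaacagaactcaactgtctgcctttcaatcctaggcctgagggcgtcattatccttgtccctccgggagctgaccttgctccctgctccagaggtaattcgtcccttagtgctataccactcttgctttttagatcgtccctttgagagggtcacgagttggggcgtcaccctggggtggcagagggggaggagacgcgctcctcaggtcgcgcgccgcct
The P2rx7 window held 1 match to the AP-1 letters, found in 4.46% of 32841 mouse promoters of this length, and 2 matches to the GC box letters, found in 32.7%. The P2rx4 window held no match to either, and neither did the window of a further P2rx7 start at chr5:122650133-122650382. No match to TATAAA (12.4% of promoters), TGACGTCA (1.55%), TGATGNAA (3.45%) or RRRCATGYYY (1.63%) lay in any of these windows. The last is 1 form of the p53 half-site, with R for A or G and Y for C or T, and other forms were not searched. GC content was 53.6% in the first P2rx7 window and 57.2% in the P2rx4 window, with 6 and 13 CG dinucleotides, against a median of 6 over all promoters. Such a match is a description of letters, not of binding.

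P2rx7 was a low transcript in control cells and a high one in KD. Its level was 11.7 CPM (exact 95% interval 9.04 to 14.8, 67 counts) and 16.7 CPM (14.01 to 19.7, 139 counts) in the control libraries. In KD it was 758 CPM (733 to 784, 3334 counts) and 784 CPM (755 to 813, 2818 counts). In KD+Ccnb1 it was 94.7 CPM (87.0 to 103, 556 counts) and 82.2 CPM (75.4 to 89.4, 544 counts). Both libraries of each group lay together, and no library of one J1 group reached the range of another, with control lowest, KD+Ccnb1 between and KD highest. These intervals cover counting error only, because without molecular identifiers several reads can stem from 1 molecule. In bulk RNA, more cells with the transcript and more transcript per cell cannot be told apart.

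**Figure D1:**
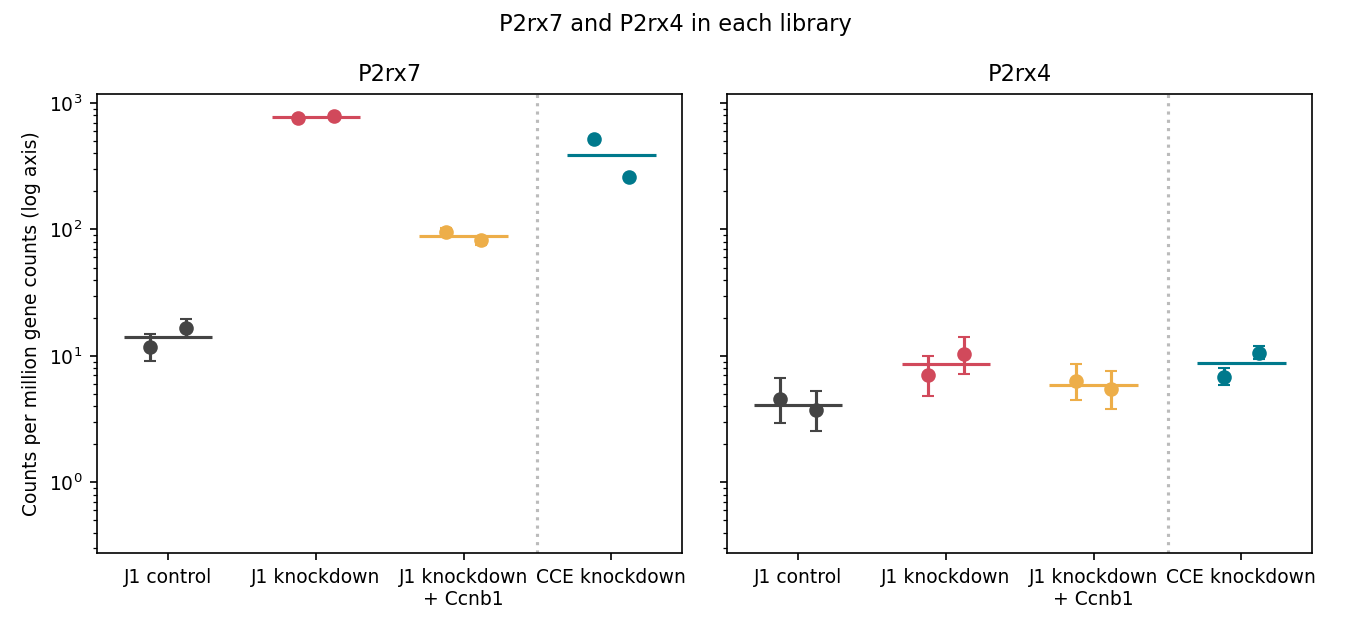
Level of P2rx7 (left) and P2rx4 (right) in CPM on a log axis, 1 point per library with its exact 95% counting interval and a bar at the group mean; the CCE libraries, right of the dotted line, are in no comparison. P2rx7 ran from 11.7 to 784 CPM over the J1 libraries and P2rx4 from 3.72 to 10.3 CPM.

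The comparison of KD with control asks what changes with eIF4A3 knockdown, and it is the one that selected P2rx7. There the log2 fold change of P2rx7 was 5.59 (SE 0.18, n = 2 libraries a group), rank 109 of 14462 genes tested and rank 15 of the 11721 averaging 5 CPM or more over the J1 libraries. The median over all genes tested was -0.08. Of all genes tested, edgeR called 28.9% at an adjusted p of 0.05, 11.0% higher and 17.9% lower, and nothing about P2rx7 is read from these shares. Its log2 fold change ran from 5.34 to 5.86 over 13 alternative analyses. With the counts scaled down by the spread of their group, here called molecule equivalents, P2rx7 held 280 in KD and 60 in control. The ratio of their levels was then 53.1 (exact 95% interval 40.1 to 71.4). This interval and those of the P2rx7 ratios below describe counting only. They take no account of the choice of P2rx7 from these libraries and are not a test.

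P2rx7 stood lower in KD+Ccnb1 than in KD, by a log2 fold change of -3.04 (SE 0.16). This value again rests on the libraries that selected the gene and carries no test. In molecule equivalents, with 585 in KD+Ccnb1, the ratio was 0.114 (exact 95% interval 0.0990 to 0.132). The fall ranked 267 from the bottom of the 14462 genes tested. Of all genes tested, 38.8% were called in this comparison, 22.8% higher and 16.0% lower.

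P2rx7 stood higher in KD+Ccnb1 than in control, a comparison whose control libraries took part in its choice. Its log2 fold change was 2.54 (SE 0.17), and both KD+Ccnb1 libraries exceeded both controls. The ratio in molecule equivalents was 6.07 (exact 95% interval 4.65 to 8.06), from 585 against 60. The log2 fold change ran from 2.25 to 2.87 over 13 alternative analyses. In this comparison 19.8% of all genes tested were called, 9.35% higher and 10.5% lower, and P2rx7 ranked 514 from the top. The 3 comparisons share libraries and are not independent of each other. An offset for the GC content and length of genes moved the share of called genes that were higher from 38.0% to 55.5% in KD against control, from 58.7% to 36.0% in KD+Ccnb1 against KD and from 47.2% to 26.1% in KD+Ccnb1 against control. The medians over all genes became 0.17, -0.32 and -0.11, and relative to them P2rx7 stood at 5.64, -3.24 and 2.36.

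Several measures moved along with P2rx7. The embryonic stem cell marker sum was lowest in KD, where 9 of its 10 genes fell, against 17.9% of all genes tested (median log2 fold change -1.22, against -0.08). Between KD+Ccnb1 and control the sums were close, but 5 of the 10 genes were called, against 19.8% of all genes tested. Nanog (log2 fold change 0.97), Zfp42 (0.35) and Esrrb (0.30) were higher in KD+Ccnb1, and Pou5f1 (-0.88) and Utf1 (-1.22) were lower. The share of unaligned reads and the number of genes detected also set KD apart. Their part in the P2rx7 values was not tested. For macrophages, the cells best known for P2X7, the sum over 10 markers was 78.0 and 79.7 CPM in the control, 134 and 71.2 CPM in KD and 40.0 and 39.1 CPM in KD+Ccnb1, so it did not follow P2rx7. Cd68, a lysosomal protein gene also active outside macrophages, made up most of it, with 126 and 65.9 CPM in KD. Aif1, Fcgr3, Tyrobp and Lyz2 had no count in any J1 library, and Csf1r and Itgam had none in KD. In KD, Cd14 (26 counts) and Adgre1 (9 counts) were seen in replicate 1 only and Ptprc (19 counts) in replicate 2 only. Outside KD each of these had at most 3 counts in a J1 library. In CCE, Csf1r stood at 18.5 and 19.0 CPM. The sum over 10 fibroblast and feeder markers was 22.8 and 20.4 CPM in the control, 30.2 and 36.7 CPM in KD and 37.5 and 35.6 CPM in KD+Ccnb1. In KD 7 of the 10 had no count. Of the 4 tested, 1 was called higher in KD than in control (Col1a1) and 1 lower (Fbn1), against 11.0% and 17.9% of all genes tested. In KD+Ccnb1 Col1a1 lay between the other groups, as P2rx7 did. It stood at 1.39 and 1.08 CPM in the control, 14.3 and 17.2 CPM in KD and 3.07 and 2.72 CPM in KD+Ccnb1. Primitive endoderm markers summed to 115 and 109 CPM, 199 and 305 CPM, and 428 and 433 CPM in the same order. These sums were thus above control in both other groups, as P2rx7 was, and highest in KD+Ccnb1, and Col4a1 and Lama1 made up most of each. Of the 10 genes, 2 were called higher in KD than in control (Dab2 and Lama1), against 11.0% of all genes tested. There 1 was called lower (Sox7, with no count in KD), against 17.9%, and Foxa2 also had no count in KD. The part of the marker sums in the P2rx7 values was not tested. Trophectoderm markers summed to 50.2 and 53.5 CPM, 43.7 and 83.4 CPM, and 72.5 and 83.2 CPM.

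P2rx4 was low in every library. It had 26 and 31 counts in control (4.53 and 3.72 CPM), 31 and 37 counts in KD (7.05 and 10.3 CPM) and 37 and 36 counts in KD+Ccnb1 (6.30 and 5.44 CPM). The libraries of the 3 groups did not overlap, in the same order as those of P2rx7. The share of all genes with such an order was not counted, so nothing about P2rx4 is read from it. The gaps of P2rx4 were small beside the counting intervals, such as 4.79 to 10.005 CPM for the lower KD library and 2.96 to 6.64 CPM for the higher control. The log2 fold change was 0.92 in KD against control (SE 0.58, edgeR adjusted p = 0.294). It was -0.48 in KD+Ccnb1 against KD (SE 0.57, edgeR adjusted p = 0.559) and 0.43 in KD+Ccnb1 against control (SE 0.57, edgeR adjusted p = 0.668). No change of P2rx4 was therefore called. Under the GC and length offset, and relative to the median of all genes, the 3 values were 0.95, -0.79 and 0.12. Without replicate 1 of KD the first value was 1.15 and passed (edgeR adjusted p = 0.0344), the range over its 13 alternatives being 0.0344 to 0.611. The library left is then assumed to vary like the other groups, whose spread was far smaller. In molecule equivalents P2rx4 held only 3 in KD, 17 in control and 39 in KD+Ccnb1. The KD level was 2.01 times that of control (exact 95% interval 0.377 to 6.94) and the KD+Ccnb1 level 1.43 times (0.790 to 2.69). Both intervals include 1, so a change of P2rx4 was not detectable at this depth.

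In the CCE libraries P2rx7 stood at 520 and 262 CPM (12464 and 6704 counts) and P2rx4 at 6.84 and 10.6 CPM (164 and 271 counts). The P2rx7 levels of both CCE libraries were above those of J1 control and KD+Ccnb1 and below those of J1 KD. P2rx4 lay above both J1 controls, with 1 CCE library just below and 1 just above both J1 KD libraries. Line, processing and treatment cannot be told apart in that setting, because the CCE files were counted differently and have no control here. Within CCE the order of the libraries was opposite for the 2 genes, with P2rx7 higher in replicate 1 and P2rx4 higher in replicate 2. These 2 libraries differed by 7.34 times Poisson noise over all genes, and the opposite order was not tested.

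Per length of transcript, P2rx7 was the leading P2X receptor wherever it was high. With 5970 bases of exon for P2rx7 and 7025 for P2rx4, the control libraries held 1.95 and 2.79 CPM per kilobase of P2rx7 and 0.645 and 0.529 of P2rx4. KD held 127 and 131 CPM per kilobase of P2rx7 and 1.00 and 1.46 of P2rx4. KD+Ccnb1 held 15.9 and 13.8 of P2rx7 and 0.897 and 0.774 of P2rx4, on the same scale. P2rx7 thus exceeded P2rx4 by 3.03 and 5.28 times in control, 127 and 89.6 times in KD, 17.7 and 17.8 times in KD+Ccnb1, and 89.4 and 29.1 times in CCE. Of the summed level of the 7 P2X genes, P2rx7 made up 26.2% and 48.0% in control, 88.9% and 90.3% in KD, 78.4% and 78.7% in KD+Ccnb1, and 94.7% and 89.0% in CCE. P2rx4 made up 8.63% and 9.09% in control and 0.703% and 1.01% in KD. In control replicate 1 the largest share, 31.1%, belonged to P2rx5.

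**Figure D2:**
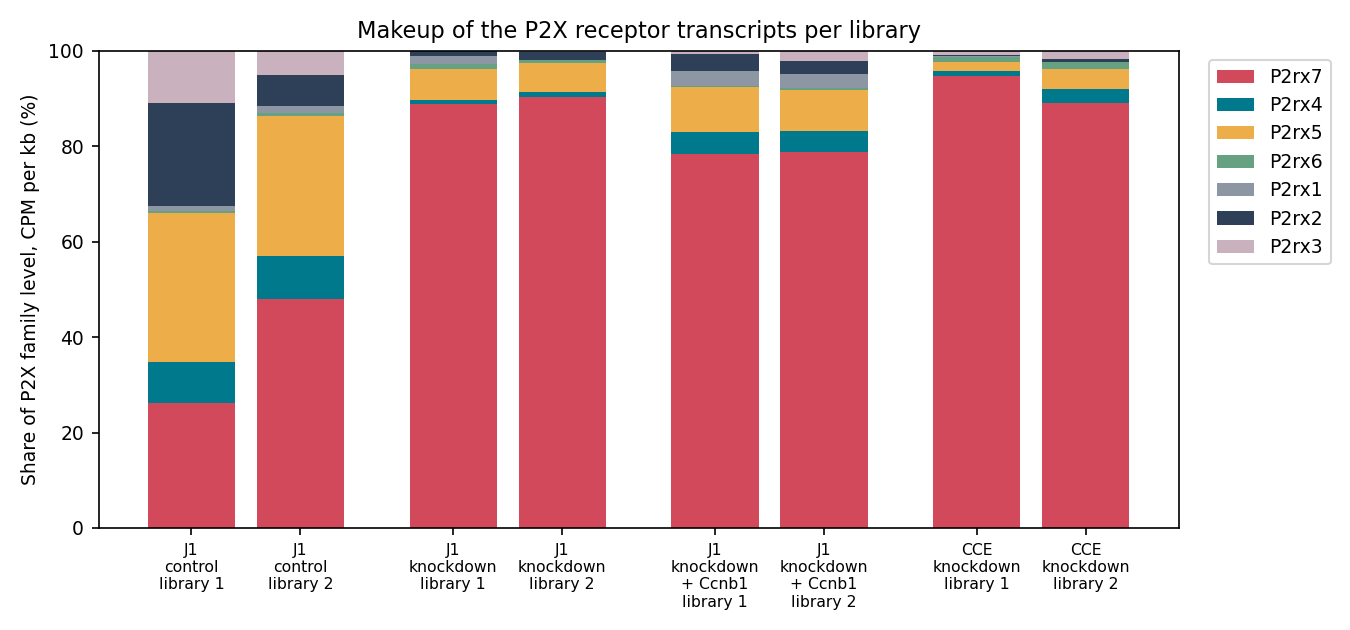
Share of each of the 7 P2X receptor genes in their summed level per kilobase of exon (percent, vertical axis), 1 stacked bar per library. P2rx7 took 26.2% and 48.0% of the sum in control and 78.4% or more in each other library, while P2rx4 stayed at 9.09% or less.

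Among the other P2X genes, 3 were tested beside P2rx4, and P2rx5 and P2rx6 were called higher in KD than in control and lower in KD+Ccnb1 than in KD. Of all genes tested, 11.0% were called higher in KD than in control and 16.0% lower in KD+Ccnb1 than in KD. P2rx5, which encodes a subunit that forms weak channels alone, stood at 5.57 and 4.08 CPM in the control, 22.7 and 21.4 CPM in KD and 4.60 and 3.63 CPM in KD+Ccnb1. Its log2 fold change was 2.04 against control (SE 0.46, edgeR adjusted p = 0.0257) and -2.34 in KD+Ccnb1 against KD (SE 0.46, edgeR adjusted p = 0.0132). It was not called in KD+Ccnb1 against control (-0.30, SE 0.45, edgeR adjusted p = 0.709). P2rx6, whose subunit joins other P2X subunits, had 25 and 11 counts in KD against 1 and 1 in control and 1 and 2 in KD+Ccnb1. It was called in both comparisons with KD (edgeR adjusted p = 0.0254 and 0.0253), and its fitted fold change depends on the prior count. P2rx5 had 100 and 77 counts in KD. At the KD spread of 22.0 times Poisson noise, the KD counts of both genes stand for few molecule equivalents. Those of P2rx6 stand for fewer than the 3 of P2rx4. The calls of P2rx5 and P2rx6 in KD against control were lost when the third group was left out of the fit (edgeR adjusted p = 0.0618 and 0.0600) and with a replicate block (0.0619 and 0.0833). In all, the P2rx5 call was lost in 6 of 13 alternatives against control and in 2 of 13 against KD+Ccnb1, and the P2rx6 call in 7 of 12 in each comparison. P2rx2 was not called in any comparison (log2 fold change 0.81 in KD, SE 0.96, edgeR adjusted p = 0.584). P2rx1 and P2rx3 were too low to be tested. P2rx1 had 28 counts in 1 KD library and none in the other.

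The other purinergic genes were described from 6 lists holding 63 genes beside P2rx7 and P2rx4, of which 41 were counted well enough to be tested. In KD against control, 6 were higher and 4 lower, together 24.4% against 28.9% of all genes tested, and their median log2 fold change was -0.23 against -0.08. In KD+Ccnb1 against KD, 9 were higher and 10 lower, 46.3% against 38.8%, with a median of -0.11 against 0.14. In KD+Ccnb1 against control, 3 were higher and 4 lower, 17.1% against 19.8%, with a median of 0.49 against 0.07. These shares were near the background. With a GC and length offset, the last counts became 0 higher and 5 lower. Of the called genes that are named here by rule, 2 of 9, 1 of 16 and 0 of 7 kept their call in all 13 alternatives in these 3 comparisons. Those kept were Gja1 and Vdac1 in the first and Lrrc8d in the second.

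ATP reaches P2X7 and P2X4 through release channels and vesicles, and 10 of the 13 listed genes of that kind were tested. In KD against control 2 were called higher and 1 lower, a share near the 28.9% of all genes tested. From KD to KD+Ccnb1, 5 were called higher and 3 lower, where 38.8% of all genes tested were called. Gja1, which encodes connexin 43, a hemichannel subunit that can release ATP, stood at 128 and 109 CPM in the control, 288 and 287 CPM in KD and 212 and 212 CPM in KD+Ccnb1. It rose in KD (log2 fold change 1.13, SE 0.10, edgeR adjusted p = 0.0015). Against control in KD+Ccnb1 it was 0.77 (SE 0.10, edgeR adjusted p = 0.00567), but -0.03 under the GC and length offset. Slc17a9, the vesicular nucleotide transporter, rose in KD from 48.4 and 57.8 to 99.8 and 105 CPM (a log2 fold change of 0.79, SE 0.16, edgeR adjusted p = 0.0172). In KD+Ccnb1 it stood at 44.8 and 44.3 CPM, below KD (-1.12, SE 0.16, edgeR adjusted p = 0.00417). Panx1, a pannexin channel that functions with P2X7, stood at 35.5 and 32.8 CPM in KD and 14.5 and 15.6 CPM in KD+Ccnb1. That fall was called (log2 fold change -1.10, SE 0.25, edgeR adjusted p = 0.0195), whereas its 0.44 in KD against control was not (SE 0.25, edgeR adjusted p = 0.243). Vdac1, a channel of the outer mitochondrial membrane, fell in KD from 696 and 656 to 300 and 252 CPM (a log2 fold change of -1.45, SE 0.10, edgeR adjusted p = 0.000725). Lrrc8d, a subunit of volume-regulated anion channels, was higher in KD+Ccnb1 at 119 and 116 CPM than in KD at 63.0 and 60.9 CPM (a log2 fold change of 1.01, SE 0.12, edgeR adjusted p = 0.00229). Lrrc8a was also called higher there (0.66, SE 0.18, edgeR adjusted p = 0.0349), as were Lrrc8b and Lrrc8e, named after their values were seen, with no count in either KD library. By counting error alone, such a count of 0 allows up to 0.682 and 0.834 CPM in KD. If the KD spread of 22.0 times Poisson noise holds at such low counts, levels as in KD+Ccnb1 could also give no count. Whether Lrrc8b and Lrrc8e were higher in KD+Ccnb1 is therefore open.

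Among the G-protein-coupled receptors that share ligands with the P2X channels, 3 of 8 P2Y genes were tested. P2ry1, an ADP receptor named after its values were seen, had 8 and 10 counts in control, none in KD and 17 and 22 in KD+Ccnb1, and was called lower in KD (edgeR adjusted p = 0.0378). By counting error alone, a count of 0 allows up to 0.682 and 0.834 CPM in the KD libraries, against 1.39 and 1.20 CPM in control. If the KD spread of 22.0 times Poisson noise holds at such low counts, a level as in control could also give no count. Whether P2ry1 fell, and by how much, is therefore open. P2ry2, which responds to ATP and UTP, was not called (log2 fold change 1.00 in KD, SE 0.76, edgeR adjusted p = 0.381). P2ry10, P2ry12 and P2ry13 had no count in any of the 8 libraries. Of 4 adenosine receptors, 2 were tested and none was called in any comparison.

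Of the 8 tested genes for enzymes and transporters that clear ATP and its products outside the cell, 3 were called lower than control in KD+Ccnb1 and none higher, where 10.5% of all genes tested were lower and 9.35% higher. Enpp3, an ectonucleotidase, stood at 20.9 and 21.6 CPM in the control and 6.47 and 6.19 CPM in KD+Ccnb1 (log2 fold change -1.82, SE 0.35, edgeR adjusted p = 0.0195). Slc29a1, an equilibrative nucleoside transporter, stood at 436 and 398 CPM in the control and 184 and 192 CPM in KD+Ccnb1 (-1.23, SE 0.13, edgeR adjusted p = 0.00347). Alpl, tissue-nonspecific alkaline phosphatase and also a marker of embryonic stem cells, fell against control in both KD (-0.59, SE 0.12, edgeR adjusted p = 0.019) and KD+Ccnb1 (-0.998, SE 0.12, edgeR adjusted p = 0.00494). Each of these calls was lost in 4 or 5 of its 13 alternatives. Nt5e and Ada, which make and remove adenosine, were not called in KD (log2 fold changes -1.74 and 1.94, edgeR adjusted p = 0.369 and 0.0894).

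Of the 20 genes listed downstream of P2X7, 15 were tested, and in KD 2 were called higher and 1 lower, no larger a share than the 28.9% of all genes tested. The inflammasome genes that P2X7 is best known to act on were at or near the floor. Il1b and Casp1 had no count in any library, and Nlrp3 had at most 3 counts in any J1 library. By counting error alone, no count allows up to 0.360 to 0.834 CPM in J1 and 0.117 and 0.125 CPM in CCE. Pycard, which encodes the adaptor ASC, was present at 31.4 and 51.7 CPM in the control and 17.5 and 30.3 CPM in KD, and was not called (log2 fold change -0.96, SE 0.40, edgeR adjusted p = 0.129). Ppp3ca, a catalytic subunit of the calcium-activated phosphatase calcineurin, rose in KD from 31.5 and 33.1 to 84.6 and 65.1 CPM (1.06, SE 0.19, edgeR adjusted p = 0.0129). Trpm7, a cation channel fused to a kinase, rose from 112 and 94.7 to 169 and 188 CPM (0.64, SE 0.12, edgeR adjusted p = 0.0162). In KD+Ccnb1 against control Trpm7 was called higher at 0.52 (SE 0.12, edgeR adjusted p = 0.0352), but stood at -0.36 under the GC and length offset. Mapk14, the stress kinase p38 alpha, fell by 0.43 on the log2 scale (SE 0.12, edgeR adjusted p = 0.0476), a call that 9 of 13 alternatives lost. In KD+Ccnb1 against KD, 3 of the 15 were called higher and 2 lower, together 33.3% against 38.8% of all genes tested. Those lower were Pik3c3 (-1.07, SE 0.30, edgeR adjusted p = 0.0365) and Ppp3ca (-0.63, SE 0.19, edgeR adjusted p = 0.0429). Those higher were Camkk2, Nek7 and Ano6. Nek7, the partner of NLRP3, stood at 16.1 and 6.95 CPM in KD and 48.4 and 56.9 CPM in KD+Ccnb1 (2.26, SE 0.41, edgeR adjusted p = 0.0102). Ano6, the phospholipid scramblase that P2X7 opening engages, was likewise called higher in KD+Ccnb1 than in KD (1.04, SE 0.20, edgeR adjusted p = 0.013). Under the GC and length offset both calls were lost, with Nek7 at 1.20 (edgeR adjusted p = 0.0767) and Ano6 at 0.58 (edgeR adjusted p = 0.0626).

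**Figure D3:**
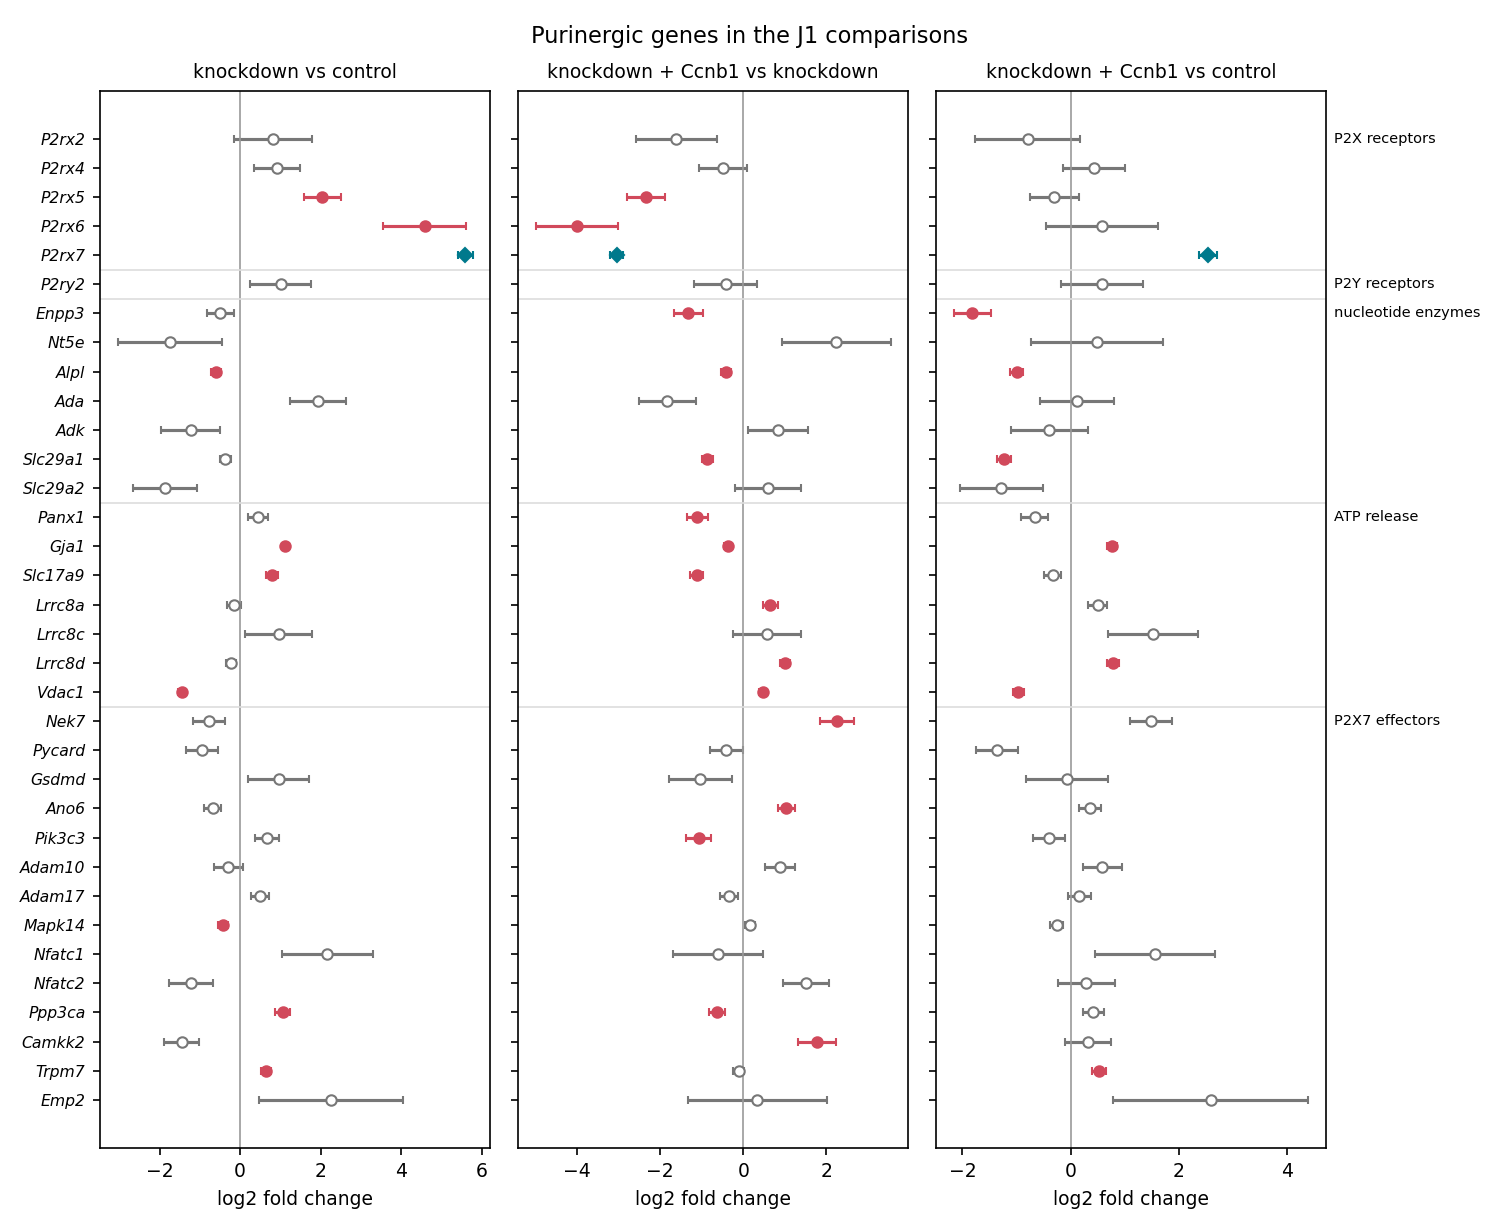
Log2 fold change (horizontal axis) with its standard error for the tested P2X genes and the other tested purinergic genes averaging 5 CPM or more over the J1 libraries, in the 3 J1 comparisons. Filled circles passed an edgeR adjusted p of 0.05, open circles did not, and diamonds mark P2rx7, shown with no test, at 5.59, -3.04 and 2.54.

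The 6 protein-coding genes on either side of the pair were examined, since P2rx7 and P2rx4 have no gene between them in GENCODE M21. Of these 12 neighbours 11 were tested. In KD against control, where P2rx7 stood at 5.59, the 11 ran from -1.45 (Camkk2, SE 0.44, edgeR adjusted p = 0.0583) to 0.86 (Ift81, SE 0.66, edgeR adjusted p = 0.389). Ift81, an intraflagellar transport gene, is next to P2rx7 on the far side from P2rx4. Only Anapc7, a subunit of the anaphase-promoting complex, was called higher (0.41, SE 0.12, edgeR adjusted p = 0.0485), and only Kdm2b, a histone demethylase, was called lower (-0.77, SE 0.18, edgeR adjusted p = 0.0288), together 18.2% of the 11 against 28.9% of all genes tested. In KD+Ccnb1 against KD, where P2rx7 stood at -3.04, they ran from -0.92 (Arpc3) to 1.77 (Camkk2), and 8 of the 11 were called, 72.7% against 38.8% of all genes tested. Fam216a, Atp2a2, Camkk2 and Kdm2b were higher there, and Gpn3, Arpc3, Anapc7 and Anapc5 were lower. In KD+Ccnb1 against control, where P2rx7 stood at 2.54, they ran from -0.72 (Arpc3) to 0.59 (Atp2a2, the endoplasmic reticulum calcium pump, SE 0.08, edgeR adjusted p = 0.00589), with Atp2a2 called higher and Anapc5 called lower. Camkk2, a calcium-dependent kinase beside P2rx4, stood at 9.75 and 14.4 CPM in the control, 4.55 and 5.28 CPM in KD and 14.5 and 17.4 CPM in KD+Ccnb1. It was lowest in KD, where P2rx4 was highest, and it was called higher in KD+Ccnb1 than in KD (1.77, SE 0.45, edgeR adjusted p = 0.0267). Of their 13 alternatives, 8 lost the call of Anapc7 in KD against control, 6 that of Kdm2b there, 5 that of Atp2a2 in KD+Ccnb1 against control and 7 that of Anapc5 there. Each of the 8 calls in KD+Ccnb1 against KD was lost in 1 to 8 alternatives, that of Camkk2 in 7, and Atp2a2 changed sign under the GC and length offset (-0.087). P2rx7 overlaps the microRNA gene Mir8115 on the same strand, which has no row in the files, and P2rx4 overlaps no other annotated gene. No other gene held a copy of either transcript at 90% identity over at least 300 bases.

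**Figure D4:**
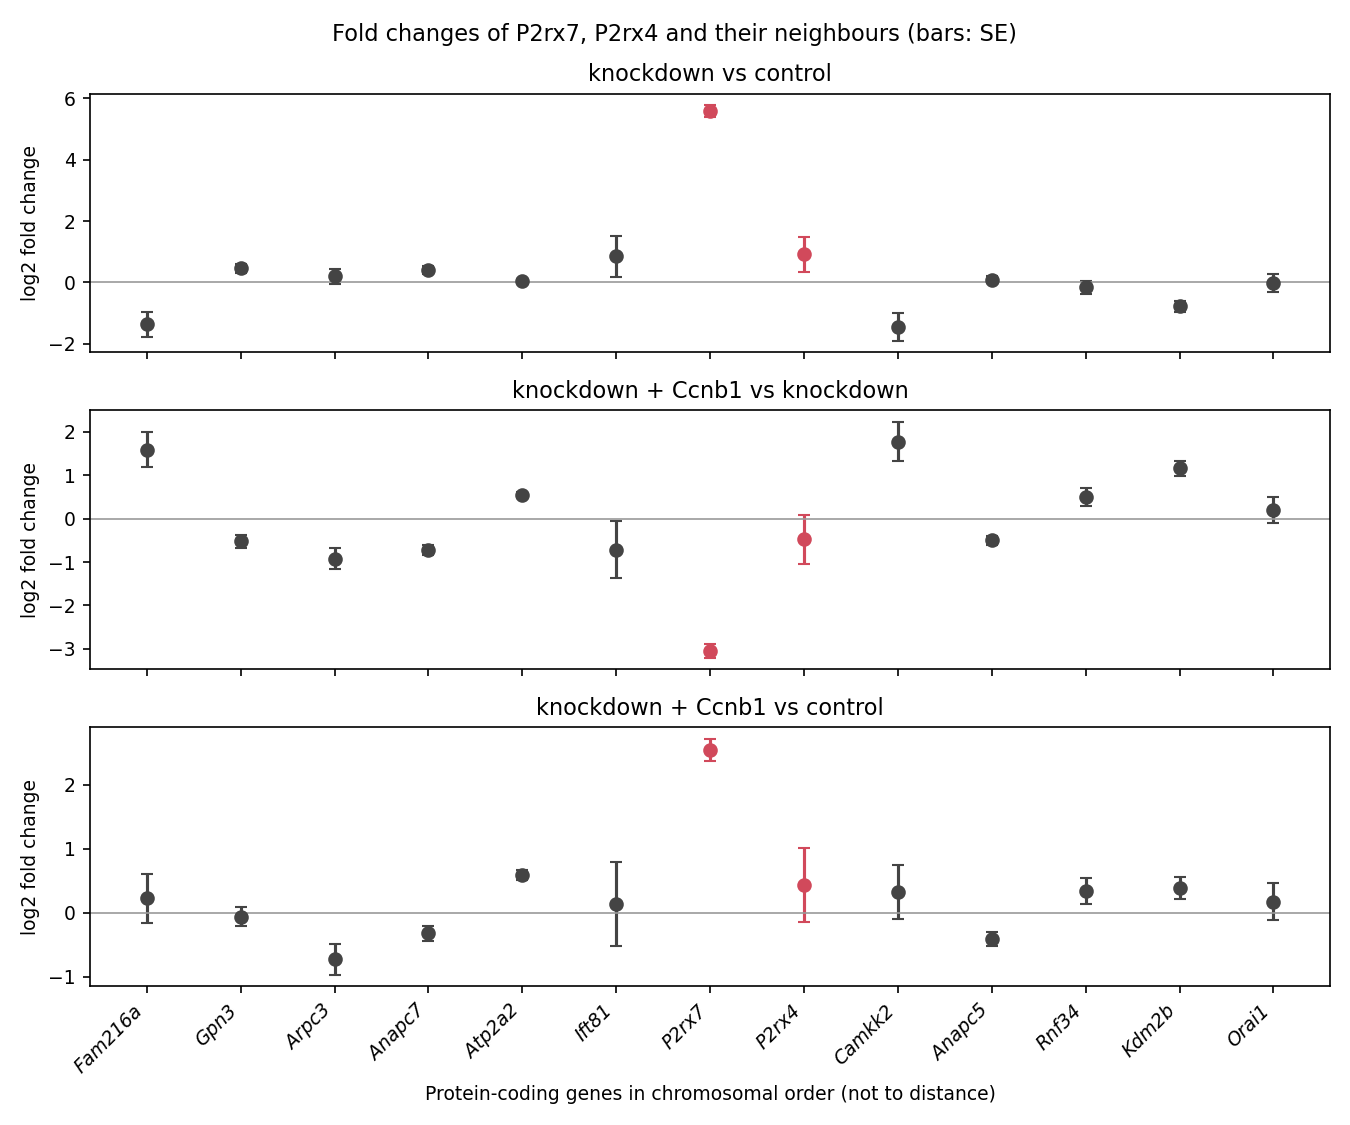
Log2 fold change with its standard error (vertical axes, each panel on its own scale) of P2rx7, P2rx4 and the 11 tested protein-coding neighbours in chromosomal order, for the 3 J1 comparisons. P2rx7 stood at 5.59, -3.04 and 2.54, while the neighbours ran from -1.45 to 0.86 in the first comparison.

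The genes with the pattern most like P2rx7 were found by the smallest root mean square difference of log2 CPM, taken from the control mean over the 6 J1 libraries, among 10464 eligible genes. They were chosen for this likeness, so their J1 values are a description. Closest was Rcsd1, which encodes a protein that regulates actin capping, with a difference of 0.42 log2 units, at 2.09 and 1.32 CPM in the control, 82.8 and 76.5 CPM in KD and 10.2 and 10.9 CPM in KD+Ccnb1. Lsmem1 (0.60), Col20a1 (0.61), Got1l1 (0.69), Il1r1 (0.69), Gpnmb (0.74), Col22a1 (0.83) and Pth2r (0.93) followed. Il1r1, the receptor for interleukin-1, stood at 0.697 and 0.839 CPM in the control, 26.6 and 28.4 CPM in KD and 4.43 and 5.14 CPM in KD+Ccnb1. Gpnmb, a lysosomal and melanosomal glycoprotein gene, stood at 0.697 and 0.480 CPM, 21.1 and 22.8 CPM and 3.92 and 4.53 CPM in the same order. In each of these 3 genes KD+Ccnb1 lay between control and KD, as P2rx7 did. The CCE libraries took no part in this choice, and there Rcsd1 stood at 29.0 and 22.9 CPM, Il1r1 at 9.10 and 5.71 CPM and Gpnmb at 61.0 and 13.2 CPM. Each was higher in replicate 1, as P2rx7 was. The share of all genes with that order was not counted, so no likeness is read from it. The pattern of P2rx4, small and shallow, had much closer matches, with differences of 0.07 (Atp8a1, a phospholipid flippase), 0.08 (Naxe, an epimerase that repairs NADHX) and 0.10 (Exosc9, an exosome subunit), followed by Mipol1, Lactb2, Parp11, Mipep and Zfp414 at up to 0.14.

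**Figure D5:**
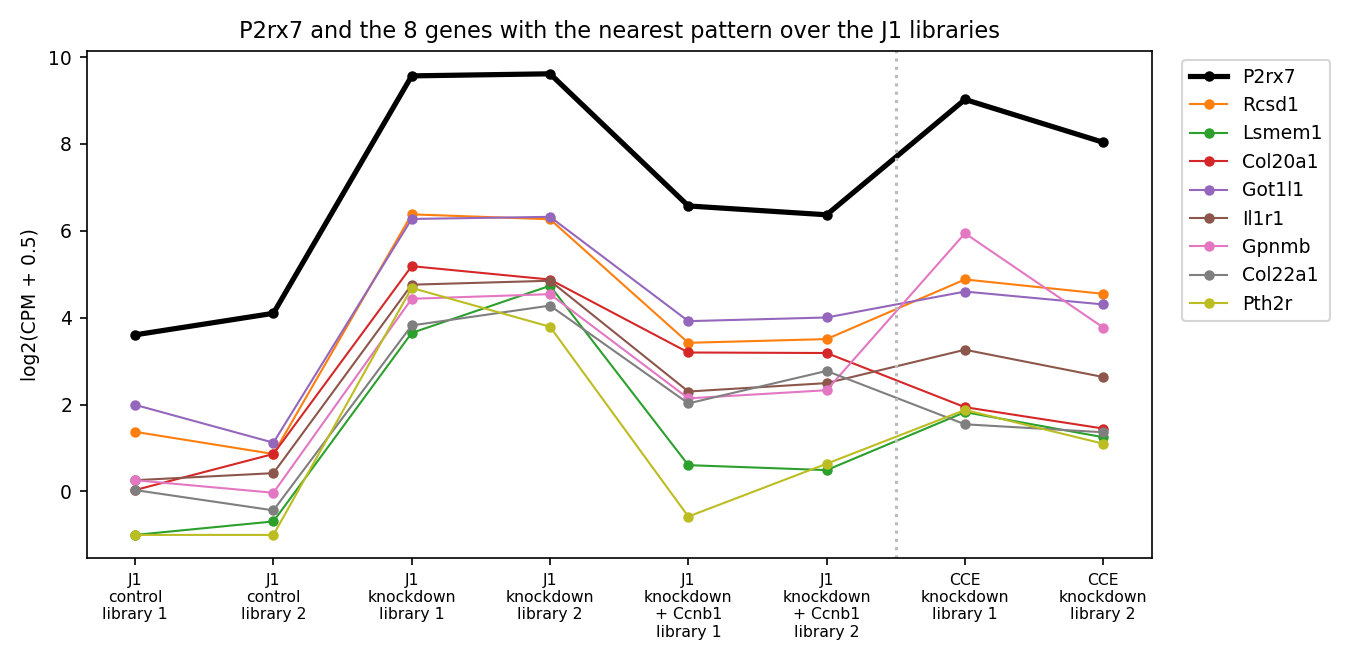
Log2 of CPM plus 0.5 (vertical axis) of P2rx7 and the 8 genes with the nearest pattern over the 6 J1 libraries, 1 point per library; lines only join the points of a gene. P2rx7 lay above all 8 in every library, and the CCE libraries, right of the dotted line, were not used to choose the genes.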

How the data were processed

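For each of the 8 poly-A libraries the authors deposited a table of read counts by Ensembl gene ID. Tools named in the submitters' processing notes were HTSeq 0.11.2, Bowtie2 2.3.4.3, edgeR 3.26.8 and SAMtools 1.9, with build mm9, and roles, settings and strand handling are not given in the sources used here. Summary rows that name no gene took 58.6% to 80.0% of the totals and were left out. Low-quality and not-unique rows were filled differently in J1 and CCE files, so levels across the lines are only set side by side.

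Levels are CPM over all gene rows. The test was the two-sided quasi-likelihood F test of edgeR 4.0.16 (R 4.3.3) on counts as deposited, in 1 fit over the 6 J1 libraries with TMM scaling, filterByExpr and no replicate block, with Benjamini-Hochberg adjustment over 14462 genes at 0.05. The SE is the size of the log2 fold change divided by the root of F. Symbols matched 32620 of 37310 gene IDs. Lengths and gene order came from GENCODE M21 and near-copies from BLAST 2.17.0. By counting error alone, a count of 0 allows up to 3 counts, 0.360 to 0.834 CPM in J1, and a spread beyond Poisson noise allows more. Molecule equivalents are counts divided by the factor by which libraries of the group spread beyond Poisson noise, with exact binomial 95% intervals of the ratio. That factor came from genes with a count above 60 and up to 2000, summed over the libraries of the group. P2rx7 in KD and CCE lay above this window and P2rx4 in control just below it, so the factor is assumed to hold for them. Replicate numbers are not stated to mark shared cultures. Correlations of the replicate differences across groups were -0.00204, -0.03045 and 0.02744. These gave no sign of pairing, but noise, largest in KD, could hide it. The fit was tested on simulated data. A planned test of P2rx7 in KD+Ccnb1 against control is not reported, because the control libraries took part in its choice.

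Alternatives were DESeq2 1.42.0 (its size factors, and its test), no filter on low counts, a replicate block, only the groups compared, a GC and length offset, counts divided by the spread, and leaving out each library. Named genes were the P2X receptors, listed purinergic genes averaging 5 CPM or more over J1, 6 neighbours on each side and the 8 genes most alike. The members and lists were chosen with earlier results of these data known.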

Additional observations from a re-analysis of the deposited data

Results flagged for a closer look

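The CCE libraries are in no comparison, and 4 P2X genes stood there above both J1 control libraries. The share of all genes that did so was not counted, so nothing about the P2X family is read from this number. The lower CCE library held 262 CPM of P2rx7, against at most 16.7 CPM in J1 control. For P2rx4 it held 6.84 CPM, against at most 4.53 CPM. For P2rx6 it held 2.89 CPM, against at most 0.174 CPM. For P2rx3 it held 2.34 CPM, against at most 2.26 CPM, so that gap was small. These are levels of another line, counted differently, and no difference was tested.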

How the results depend on the processing

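Over 13 alternatives, the values of P2rx7 and P2rx4 kept their sign. Depth limits P2rx4, with 26 to 37 counts in each J1 library. P2rx7 in KD+Ccnb1 against KD ran from -3.10 to -2.89 with 1 library left out and was -3.55 under the GC and length offset. P2rx4 in KD against control ran from 0.60 to 1.15 with 1 library left out, and passed only without replicate 1 of KD. Counts of called genes moved more. In KD against control they fell to 2631 with the replicate block and 1760 with only the 2 groups compared. In KD+Ccnb1 against control they rose to 4656 with the DESeq2 test, 8385 with counts divided by the spread and 8658 with only the 2 groups compared. With 1 library left out, counts ran from 701 to 10225 in KD against control, 1674 to 11078 in KD+Ccnb1 against KD and 254 to 8806 in KD+Ccnb1 against control. The lowest came without control replicate 2 in both comparisons with control and without KD+Ccnb1 replicate 2 in the other, the highest without KD replicate 2 in both comparisons with KD and without KD replicate 1 in the other. The replicate block left P2rx4 uncalled and P2rx7 at 2.55 in KD+Ccnb1 against control, and the libraries are known to share only a number. The GC and length offset turned Gja1 (-0.029) and Trpm7 (-0.36) in KD+Ccnb1 against control, and Atp2a2 (-0.087) in KD+Ccnb1 against KD. The cause of these shifts was not tested.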

Other observations

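P2rx7 was among the genes that differed most between the CCE libraries, an observation made after its values were seen. It stood 1.98 times higher in replicate 1 than in replicate 2. Among 4950 genes averaging 50 CPM or more in CCE, 16 differed as much or more in either direction, and 8 of them, P2rx7 included, were higher in replicate 1. The other 7 were Lgals3, Plaur, Apoe, Pla2g7, Tnfrsf12a, Plk3 and Slc12a8. Lgals3, which encodes galectin-3, stood at 136 and 43.6 CPM. Plaur, the urokinase receptor gene, stood at 206 and 88.5 CPM. Apoe, which encodes apolipoprotein E, stood at 2325 and 1019 CPM.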
